A study of Mus musculus with 4 samples.

Results

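The genes described here are 10 transcripts of the integrated stress response, the branch of stress signalling that runs through the transcription factors ATF4 and CHOP. They were chosen by name: Atf3, Atf4, Atf5, Ddit3, Trib3, Sesn2, Vldlr, Inhbe, Ppp1r15a and Cebpb. All 10 symbols were found among the 55421 gene identifiers of the count table, on 11 identifiers, because Ddit3 has 2. The cells are E14, a mouse embryonic stem cell line of 129/Ola background, kept on gelatin with serum and the cytokine LIF. The study has 2 libraries from MiR-290-295 knockout cells (KO) and 2 from wild-type cells (WT), and the labels name no further treatment. Both pairs are described as biological duplicates. Whether they stem from separate clones or cultures is not said, and p-values cover no more than the variation among the 4 libraries, which may be technical.

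The integrated stress response starts when a kinase phosphorylates the translation factor eIF2. General protein synthesis then falls, while a few messages with upstream reading frames, Atf4, Atf5, Ddit3 and Ppp1r15a among them, are translated better. ATF4 pairs with other bZIP proteins and turns on genes for amino acid supply, and with prolonged stress it turns on Ddit3, which encodes CHOP. ATF4 is therefore controlled to a large part at the protein level, and RNA counts do not measure that step.

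Library totals ran from 9925557 to 12726123 counts, so that 3 counts correspond to 0.236 to 0.302 CPM (counts per 1000000 of the library total). The 7 plus-strand microRNA genes of the deleted cluster held 88 and 39 counts in WT and 0 in each KO library, as the genotype labels say. The 6 pluripotency markers examined summed to between 2496 and 2918 CPM per library, and 0 of 6 differed by edgeR's quasi-likelihood test at an adjusted p below 0.05. Some markers of other cell types moved with the genotype. The 6 primitive endoderm markers summed to 9.82 and 9.43 CPM in KO and to 64.4 and 56.0 in WT, and 4 of 6 were lower. The 5 fibroblast markers summed to 12.0 and 23.1 CPM in KO and to 31.2 and 56.7 in WT, with Col3a1 at 0 in every library, Thy1 making up most of the sum and 2 of 3 tested lower. The 5 trophoblast markers summed to 388 and 236 CPM in KO and to 93.1 and 100.0 in WT, nearly all of it Tfap2c, while Elf5 was at 0 in both KO libraries. Of the 2 tested, Tfap2c was higher (1.78 on the log2 scale) and Eomes was not called (-0.12). The 5 neural markers summed to 99.8 and 74.7 CPM in KO and to 86.8 and 66.4 in WT, and 1 of 5, Pax6, was higher. The part of these markers in the results below was not tested. In bulk RNA, fewer cells of a type and less RNA per cell cannot be told apart.

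The sequences that the cluster and these genes could share are given first. The deleted microRNAs act through their seed, bases 2 to 8, shown in capitals. The 5 forms in the RefSeq table for GRCm38.p6 whose seed starts with AAGUGC are shown because a message is a candidate direct target when its 3' UTR holds the complement.
mmu-miR-290a-3p: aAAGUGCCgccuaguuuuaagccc
mmu-miR-291a-3p: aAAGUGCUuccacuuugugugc
mmu-miR-291b-3p: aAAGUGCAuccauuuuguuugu
mmu-miR-294-3p: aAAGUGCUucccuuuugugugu
mmu-miR-295-3p: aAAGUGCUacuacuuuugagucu

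For Mir292 the RefSeq table lists only the 5p form, so any 3p form of it was not considered. The matches to bases 2 to 8 are AGCACTT for miR-291a-3p, miR-294-3p and miR-295-3p, GGCACTT for miR-290a-3p and TGCACTT for miR-291b-3p. In the longest annotated 3' UTR of each gene, Vldlr held all 3 once each, Atf3 held GGCACTT and TGCACTT, and Sesn2 held AGCACTT. One of these or GCACTTA, the match to bases 2 to 7 followed by A, was thus present in 3 of the 10 genes, and in 34% of the tested genes with a 3' UTR (4254 of 12495). The 8-base match AGCACTTA, present in 3.58% of tested genes, was in none of the 10. The 6 sites are shown with their surroundings on GRCm38, the match in capitals, with the 3' UTR position of the shared core GCACTT. The Atf3 sites are at chr1:191171374-191171401 and chr1:191170514-191170541 on the minus strand. The Vldlr sites are at chr19:27249396-27249423, chr19:27249513-27249540 and chr19:27251738-27251765 on the plus strand, and the Sesn2 site is at chr4:132492435-132492462 on the minus strand.
Atf3, base 92 of the 3' UTR: tggcttcctgTGCACTTctagaatccca
Atf3, base 952: ggatgttaatGGCACTTttgtcttgtag
Vldlr, base 267: tggccaaataTGCACTTtccctagaaag
Vldlr, base 384: actattcttaAGCACTTtgaagatattt
Vldlr, base 2609: ctttaacttgGGCACTTgccttgattcc
Sesn2, base 1265: accaccgacaAGCACTTtgcagagcaaa

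Atf4, Atf5, Ddit3, Trib3, Inhbe, Ppp1r15a and Cebpb held no GCACTT, the shared core, in 3' UTRs of 77 to 1400 bases.

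The second set of sequences is the C/EBP-ATF response element, the composite site to which ATF4 and its partners bind in many amino acid response genes. The letters TGATGNAA, on either strand, were searched in windows from 250 bases before to 50 bases after each RefSeq start. They were found in 4 of the 10 genes, Atf3, Inhbe, Trib3 and Vldlr, against 2.90% of tested genes with a promoter in that table (297 of 10257). The 10 genes were chosen as genes of the ATF4 and CHOP pathway, so this share is not independent of that choice. The windows below show the match in capitals, read along the gene's own strand. In all 4 the match lies on the opposite strand to the gene.
Atf3, chr1:191183406-191183473, minus strand, from 110 bases before the start: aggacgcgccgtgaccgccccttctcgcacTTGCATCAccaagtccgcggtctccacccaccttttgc
Inhbe, chr10:127351992-127352059, minus strand, from 181 bases before the start: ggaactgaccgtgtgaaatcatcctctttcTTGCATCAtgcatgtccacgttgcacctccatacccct
Vldlr, chr19:27216790-27216857, plus strand, from 200 bases before the start: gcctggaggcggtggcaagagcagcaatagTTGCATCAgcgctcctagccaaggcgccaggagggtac
Trib3, chr2:152344011-152344076, minus strand, from base 15 of the transcript: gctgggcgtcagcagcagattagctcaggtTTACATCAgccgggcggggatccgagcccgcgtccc

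The Vldlr match is in 1 of its 2 listed promoters. Ppp1r15a held instead the palindromic cAMP response element TGACGTCA, 12 bases before its start, which 3% of the promoters of tested genes hold. Its window is chr7:45526243-45526310 on the minus strand.
Ppp1r15a: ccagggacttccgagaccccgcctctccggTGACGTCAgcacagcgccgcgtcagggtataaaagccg

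A match describes letters and not binding. Atf4, Atf5, Cebpb, Ddit3 and Sesn2 held neither motif in these windows, which says only that the letters are not there.

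The comparison of KO with WT then asked how the 10 genes differ when the cluster is absent. Inhbe, Vldlr, Atf5, Trib3, Atf3 and Cebpb rose in KO, while Atf4, Ddit3, Sesn2 and Ppp1r15a did not pass the test. Thus 6 of the 10 were higher and 0 lower by edgeR's quasi-likelihood test at a Benjamini-Hochberg adjusted p below 0.05. Over all 14427 tested genes 7.42% were called higher and 4.96% lower. The same 6 genes had both KO libraries above both WT libraries, as 29.2% of tested genes did, and 0 of the 10 had both below, as 28.8% did. The median log2 fold change of the 10 was 1.23, against -0.01 over all tested genes. The genes were chosen with earlier results of these data known, so this count is not independent evidence of a direction.

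**Figure D1:**
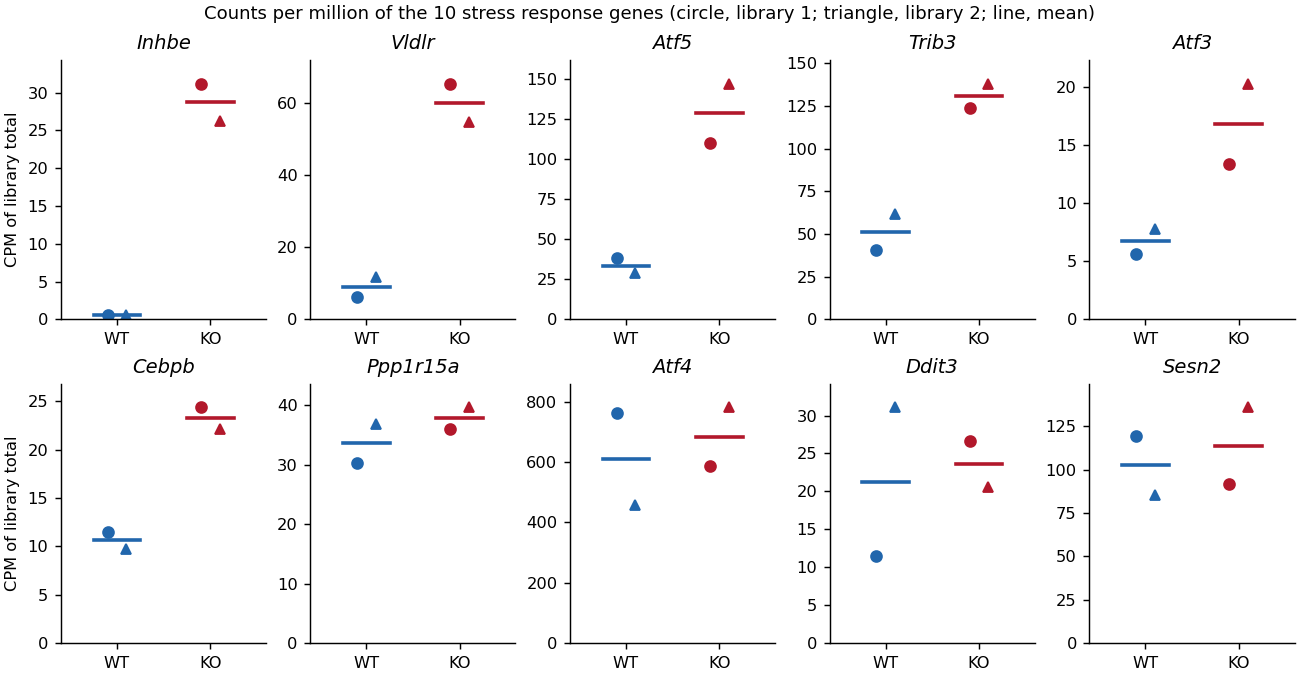
CPM (y axes from 0, a separate scale per gene) of the 10 genes in WT (blue) and KO (red), with a circle for library 1, a triangle for library 2 and a line for the mean. In the first 6 panels both KO points lie above both WT points, and in the last 4 the groups overlap.

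Among the transcription factors, Atf5 rose most. Atf5 (ENSMUSG00000038539, chromosome 7, 44812256 to 44816658, minus strand) encodes a bZIP protein related to ATF4 that is linked to the mitochondrial stress response. It stood at 110.3 and 147 CPM in KO libraries 1 and 2 and at 38.2 and 28.7 CPM in WT libraries 1 and 2. The lower KO library was well above the higher WT library. The change was 1.94 on the log2 scale (SE 0.22, edgeR adjusted p = 0.00107), or 3.83-fold with a 95% interval of 2.73 to 5.37. With 1 library left out it lay between 1.72 and 2.18 and was called each time. The 5' part of Atf5 overlaps the opposite-strand genes Nup62 and Il4i1, neither of which overlaps its last 500 bases, where 3' tags fall. Nup62 did not pass the test (0.01, SE 0.16), and its sign turned without KO library 2 (-0.07) or WT library 2 (-0.13).

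Atf3 (ENSMUSG00000026628, chromosome 1, 191170296 to 191218039, minus strand) encodes a bZIP repressor that is induced by many stresses. Its levels were 13.4 and 20.3 CPM in KO and 5.67 and 7.76 CPM in WT, so the groups did not overlap, though the KO libraries differed from each other. Its log2 fold change was 1.34 (SE 0.32, edgeR adjusted p = 0.0263). The call rested on KO library 2: without it the change was 1.01 with an adjusted p of 0.208.

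Cebpb (ENSMUSG00000056501, chromosome 2, 167688915 to 167690418, plus strand) encodes C/EBP beta, a bZIP partner of ATF4. It measured 24.4 and 22.1 CPM in KO and 11.5 and 9.77 CPM in WT, and each pair was tight. On the log2 scale it rose by 1.12 (SE 0.24, edgeR adjusted p = 0.0185). Without KO library 1 the change was 1.06 (adjusted p = 0.108) and without KO library 2 it was 1.20 (adjusted p = 0.0596), so that the size held and the call did not. The gene overlaps Tmem189 on the opposite strand, outside its last 500 bases, and Tmem189 did not pass the test (0.34, SE 0.23).

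Atf4 (ENSMUSG00000042406, chromosome 15, 80255184 to 80257541, plus strand), the central factor of the pathway, was measured at 587 and 782 CPM in KO and at 763 and 459 CPM in WT. WT library 1 lay above KO library 1 and WT library 2 below both KO libraries, so the groups overlapped. A log2 fold change of 0.16 was fitted (SE 0.24, edgeR adjusted p = 0.709), and its 95% interval of 0.772-fold to 1.62-fold leaves out an increase as large as that of Atf5. The WT pair decided this value. Atf4 was called higher without WT library 1 (0.59, adjusted p = 0.0336), and the sign turned without WT library 2 (-0.18) or KO library 2 (-0.05).

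Ddit3 (ENSMUSG00000025408, chromosome 10, 127290774 to 127296288, plus strand) encodes CHOP, the factor of the late, death-promoting phase. Its levels were 26.6 and 20.6 CPM in KO and 11.5 and 31.1 CPM in WT, with both KO libraries between the WT libraries. The log2 fold change was 0.16 (SE 0.39, edgeR adjusted p = 0.824), with a 95% interval from 0.615-fold to 2.04-fold, so a change of 2-fold is not excluded. Again the WT pair set the result, in the opposite order to Atf4: Ddit3 was called higher without WT library 2 (1.02, adjusted p = 0.0185) and gave -0.38 when WT library 1 was left out and -0.03 when KO library 1 was. A second identifier named Ddit3 (ENSMUSG00000116429), which overlaps the first on the same strand, held 0 counts in every library, and how reads shared by the 2 were counted is not given in the sources used here. The last 500 bases of Ddit3 share 68 bases with an exon of the opposite-strand gene Mars, which did not pass the test (0.20, SE 0.14).

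Counts per 100 Atf4 counts in the same library show the relation without any scaling between libraries. Atf5 had 18.8 in each KO library and 5.01 and 6.26 in the WT libraries, 3.33 times as many on average. Sesn2 had 15.6 and 17.4 in KO and 15.7 and 18.6 in WT, a ratio of means of 0.964. Ddit3 had 4.53 and 2.63 in KO and 1.51 and 6.79 in WT. Thus Atf5 and Atf4 kept nearly 1 ratio within each genotype and a different ratio between genotypes, Sesn2 and Atf4 kept about the same ratio in all 4 libraries, and Ddit3 followed neither pattern. An exact permutation test of 2 against 2 libraries cannot go below p = 0.333 (two-sided), so these ratios are a description.

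Feedback regulators divided in the same way. Trib3 (ENSMUSG00000032715, chromosome 2, 152337422 to 152344032, minus strand) encodes a pseudokinase that binds ATF4 and CHOP and restrains them. It was measured at 124 and 138 CPM in KO and at 40.5 and 61.5 CPM in WT, with a wide gap between the groups. Trib3 rose by 1.37 on the log2 scale (SE 0.21, edgeR adjusted p = 0.00404), which is 2.59-fold with a 95% interval of 1.88 to 3.56, and it was called with any 1 library left out (1.11 to 1.67).

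Ppp1r15a (ENSMUSG00000040435, chromosome 7, 45522916 to 45526268, minus strand) encodes GADD34, the inducible phosphatase subunit that removes the phosphate from eIF2. Its levels were 36.1 and 39.7 CPM in KO and 30.3 and 36.9 CPM in WT. One WT library exceeded one KO library, and all 4 values lay close together. Its log2 fold change was 0.18 (SE 0.20, edgeR adjusted p = 0.605). The 95% interval, 0.835-fold to 1.53-fold, was the narrowest of the 10, and no library left out brought a call (0.06 to 0.30). The opposite-strand gene Tulp2 shares 12 of the last 500 bases of Ppp1r15a and did not pass the test (0.30, and -0.14 without KO library 1).

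Sesn2 (ENSMUSG00000028893, chromosome 4, 132492032 to 132510501, minus strand) encodes sestrin 2, a leucine sensor that holds back mTORC1. It measured 91.8 and 136 CPM in KO and 119.6 and 85.2 CPM in WT, so that the libraries of the groups alternate in order. The log2 fold change was 0.15 (SE 0.23, edgeR adjusted p = 0.723), with an interval of 0.773-fold to 1.60-fold. The sign turned without KO library 2 (-0.16) or WT library 2 (-0.09).

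The remaining 2 genes encode a secreted ligand and a receptor, and they changed most. Inhbe (ENSMUSG00000047492, chromosome 10, 127348857 to 127354411, minus strand) encodes the inhibin beta E subunit, from which activin E is formed, and is known mainly as a liver hormone gene. It held 397 and 309 counts in KO against 7 and 6 counts in WT, or 31.2 and 26.3 CPM against 0.575 and 0.605 CPM. The gene was thus near the limit of detection in WT. The log2 fold change was 5.58 (SE 0.34, edgeR adjusted p = 9.63e-05), a 48.0-fold difference with a 95% interval of 28.0 to 82.0, and only 0.0762% of the tested genes rose by more. It lay between 5.46 and 5.71 with 1 library left out.

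Vldlr (ENSMUSG00000024924, chromosome 19, 27216484 to 27254231, plus strand) encodes the very low density lipoprotein receptor, which takes up lipoproteins and also binds reelin. Its levels were 65.5 and 54.8 CPM in KO and 6.17 and 11.9 CPM in WT. Both KO libraries were far above the WT libraries, which themselves differed by 0.94 on the log2 scale. The log2 fold change was 2.75 (SE 0.29, edgeR adjusted p = 8.33e-04), a 6.74-fold difference with a 95% interval of 4.27 to 10.6, and it lay between 2.36 and 3.27 with 1 library left out. Of the genes with 7-base seed matches, shown above, Vldlr and Atf3 rose and Sesn2 did not pass the test. All 4 genes whose windows hold the C/EBP-ATF element rose, and so did Atf5 and Cebpb, whose windows do not hold it.

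**Figure D2:**
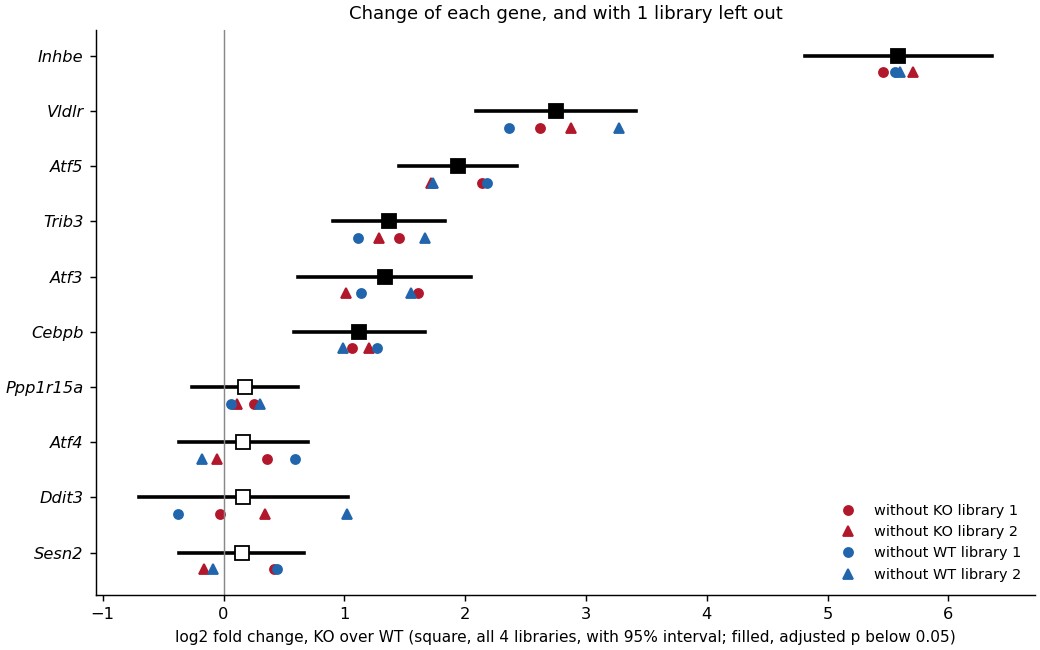
Log2 fold change of KO over WT (x axis) for each gene, as a square with its 95% interval from all 4 libraries, filled where the edgeR adjusted p is below 0.05, and as coloured points with 1 library left out. Inhbe stands apart at 5.58, and the points of Atf4, Ddit3 and Sesn2 fall on both sides of 0.

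Inhbe and Ddit3 lie in the same stretch of chromosome 10. Of 8 other tested genes within 50000 bases of either, 3 were higher and 0 lower, against 7.42% and 4.96% of all tested genes. The other 5, which are Inhbc, Mars, R3hdm2, Dctn2 and Kif5a, ranged from 0.20 to 1.53 on the log2 scale and were not called. Gli1, the transcription factor and target of Hedgehog signalling, begins 6883 bases away and rose by 1.66 (SE 0.19, edgeR adjusted p = 0.00111). Arhgap9, 18914 bases away, rose by 1.35 (SE 0.32, adjusted p = 0.0255) and lost its call without KO library 2 (1.19, adjusted p = 0.156). The paralog Inhbc, 1911 bases away on the same strand, was at 1.26 and 1.10 CPM in KO and 0.575 and 0.202 CPM in WT. Inhbc did not pass the test (1.53, SE 0.71, edgeR adjusted p = 0.191), with 2.51 without WT library 1 and 1.01 without WT library 2. Mbd6, which is 1756 bases from Ddit3, was higher (0.72, SE 0.18, adjusted p = 0.0314, not called without KO library 1, 0.71, or without KO library 2, 0.74). The increase of Inhbe was far larger than that of each of these neighbours. Next to Ppp1r15a, Plekha4 was higher (1.35, adjusted p = 0.0234, with calls lost without KO library 1, 1.30, or KO library 2, 1.41), and Bcat2, which is 43885 bases away, was lower (-1.11, SE 0.23, adjusted p = 0.0172, not called without KO library 1, -0.97). Over all 10 genes, 34 tested neighbours lay within that distance. Of these, 4 were higher and 1 lower, against 7.42% and 4.96% of all tested genes.

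The 2 libraries of a genotype did not vary alike for these genes. Over 10360 tested genes with a mean of at least 5 CPM, the median absolute log2 ratio was 0.258 between the WT libraries and 0.178 between the KO libraries. WT library 2 was above WT library 1 by 1.43 for Ddit3, a gap larger than that of 98.6% of these genes, by 0.94 for Vldlr and by 0.60 for Trib3. It was below for Atf4 (-0.73), Sesn2 (-0.49) and Atf5 (-0.41). In the KO pair, Atf4 (0.41), Atf5 (0.41) and Sesn2 (0.57) were higher in library 2, and Ddit3 (-0.37) was lower. Atf4, Atf5 and Sesn2 thus moved together within both pairs. Ddit3 moved against them, as did Vldlr (-0.26 in KO), over only 2 pairs of libraries. Inhbe held 7 and 6 counts in WT, too few to read a direction between these libraries. Atf3 (0.45 in WT and 0.60 in KO), Trib3 and Ppp1r15a were higher in library 2 of both pairs. Cebpb differed by -0.23 between the WT and -0.14 between the KO libraries, less than the median size in each, and Inhbe by 0.09 and -0.25.

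**Figure D3:**
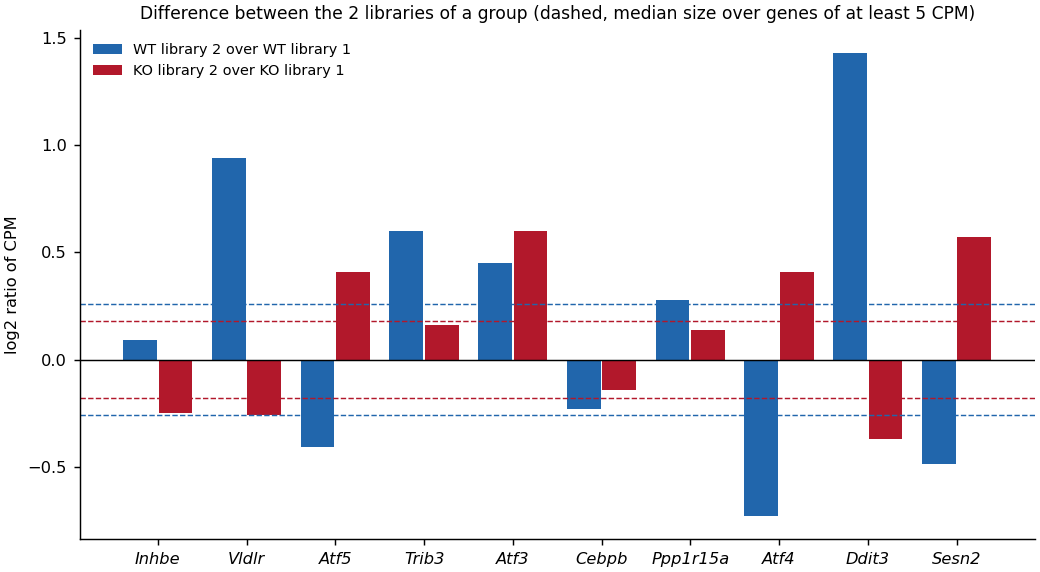
Log2 ratio of CPM between library 2 and library 1 of WT (blue bars) and of KO (red bars) for the 10 genes, with dashed lines at the median size of that ratio over genes of at least 5 CPM, 0.258 in WT and 0.178 in KO. Ddit3 and Atf4 point in opposite directions within each genotype.

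The other genes of the pathway were read from the same fit, as lists. All lists were written with earlier results of these data known, so their counts are not independent evidence of a direction. Most other targets of ATF4 or CHOP rose: 27 of 38 were higher and 0 lower, with a median log2 fold change of 0.88, against 7.42% and 4.96% of all tested genes. Slc7a11, the cystine importer, rose by 4.13 (SE 0.31, edgeR adjusted p = 1.92e-04), from 2.96 and 6.35 CPM in WT to 80.1 and 79.6 CPM in KO. Its change was 3.67 without WT library 1 and 4.73 without WT library 2. Gpt2, a mitochondrial alanine aminotransferase, rose by 2.59 (SE 0.18), Aldh1l2, of mitochondrial folate metabolism, by 2.60 (SE 0.23), and the glycine transporter gene Slc6a9 by 2.24 (SE 0.22). Among the secreted factors of the list, Gdf15, a stress hormone, rose by 2.12 (SE 0.21), Stc2, a stanniocalcin, by 2.15 (SE 0.32, adjusted p = 0.00382, and 2.83 without WT library 2), and Fgf21 by 2.82 (SE 0.70, adjusted p = 0.0321), at no more than 3.69 CPM in any library. Vegfa, an angiogenic factor, did not pass the test (0.80, SE 0.28, adjusted p = 0.0954) but was called without WT library 2 (1.36), with no filter (adjusted p = 0.00111) and by DESeq2 (adjusted p = 0.0495). Fgf21 lost its call without KO library 1 (2.43, adjusted p = 0.192) or WT library 1 (2.09, adjusted p = 0.0842) and gave 4.09 without WT library 2. The count of 27 was 18 without KO library 1 or without KO library 2, 26 without WT library 1 and 31 without WT library 2.

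Chac1, which degrades glutathione and is a known target of ATF4 and CHOP, rose by 1.44 (SE 0.33, edgeR adjusted p = 0.0239), from 25.1 and 63.2 CPM in WT to 119 and 118 CPM in KO. Its WT libraries differed widely and its KO libraries hardly at all, and the change was 0.93 without WT library 1 and 2.22 without WT library 2. Asns, asparagine synthetase and a standard marker of the ATF4 response, was at 708 and 702 CPM in KO and 477 and 603 CPM in WT and did not pass the test (0.39, SE 0.15, adjusted p = 0.113), but was called without WT library 2 (0.55, adjusted p = 0.0181). Ddit4, an mTORC1 inhibitor, gave 1.24 (adjusted p = 0.0836) and was called without KO library 2 (1.68) or WT library 2 (2.07), with 0.63 without KO library 1. Jdp2, a bZIP repressor, gave 1.34 (adjusted p = 0.0619) and was called without KO library 1 (1.46), WT library 1 (0.73) or WT library 2 (2.36). In the edgeR fit with no filter on low counts, both Ddit4 (adjusted p = 5.86e-11) and Jdp2 (adjusted p = 3.46e-07) were called. Their SEs there were 0.17 and 0.23, against 0.42 and 0.41 in the main fit. The DESeq2 test called neither (adjusted p = 0.375 and 0.287), nor did edgeR with the replicate block (adjusted p = 0.189 and 0.0513).

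WT library 2 stood above WT library 1 for 28 of the 38 targets (73.7%, median log2 ratio 0.34), against 54.3% of all tested genes, with a median of 0.05. Between the KO libraries 15 of 38 were higher in library 2. Atf4 itself was lower in WT library 2, with a log2 ratio of -0.73. In 34 of the 38 targets both KO libraries were above both WT libraries, as in 29.2% of all tested genes. In 2 both were below, as in 28.8% of all tested genes. Of the 29 targets with a promoter in the table, 10 held the letters TGATGNAA, 7 of the 21 that rose and 3 of the 8 that were not called. The targets were chosen as genes of this pathway, so their share is not independent of that choice. Over all tested genes the shares were 7.43% of those called higher (60 of 808), 1.81% of those called lower and 2.55% of those not called. The 60 include Atf3, Inhbe, Trib3, Vldlr and the 7 targets, and the reason for the difference in shares was not tested.

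**Figure D4:**
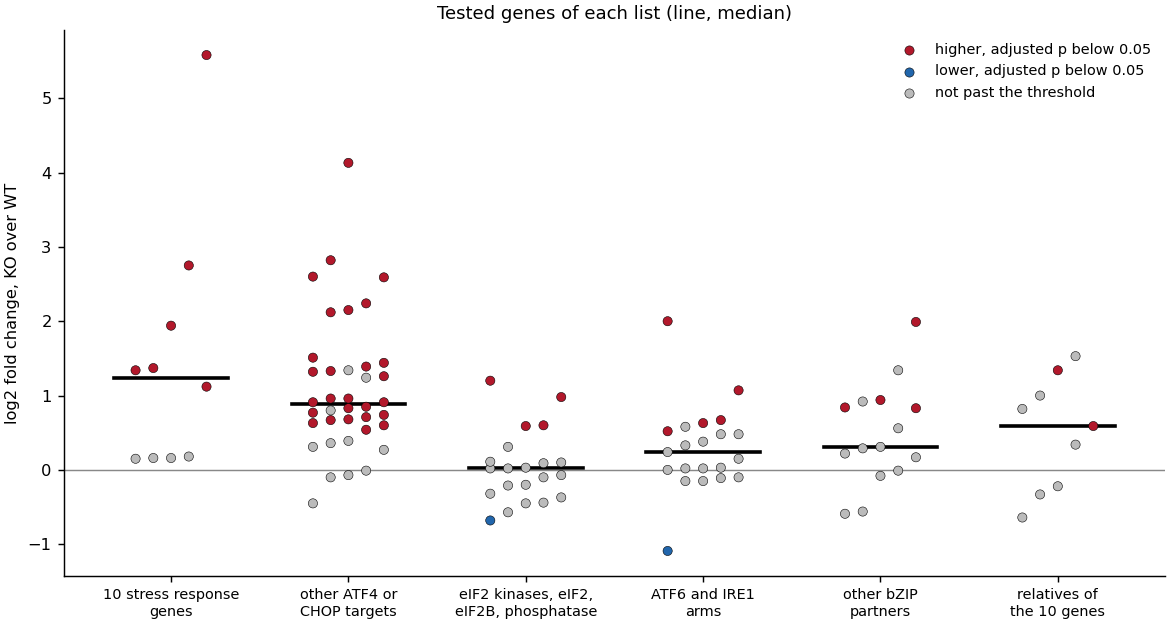
Log2 fold change of KO over WT (y axis) for every tested gene of each list, red where higher and blue where lower at an edgeR adjusted p below 0.05, grey otherwise, with a line at the median. The other ATF4 or CHOP targets lie mostly above 0 (median 0.88), and the genes of the eIF2 kinases and phosphatases spread around 0 (median 0.02).

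Upstream of ATF4, of 21 genes for the eIF2 kinases, eIF2, its exchange factor eIF2B and the phosphatase, 4 were higher (19%, against 7.42% of all tested genes) and 1 lower (4.76%, against 4.96%), with a median of 0.02. The 4 kinase genes did not pass the test: Eif2ak1 (0.10), Eif2ak2 (0.31), Eif2ak3 (-0.37), which encodes PERK, and Eif2ak4 (0.02), which encodes GCN2. Impact, an inhibitor of GCN2 activation, rose by 1.20 (SE 0.19, edgeR adjusted p = 0.00581), and Dnajc3, an inhibitor of PERK, by 0.98 (SE 0.20, adjusted p = 0.0152, and 0.0915 without KO library 2, with 0.87). Eif2s1, the eIF2 subunit that is phosphorylated, fell by 0.68 on the log2 scale (SE 0.14, adjusted p = 0.0159), from 421 and 382 CPM in WT to 252 and 249 CPM in KO. Ppp1r15b, the constitutive counterpart of Ppp1r15a, rose by 0.59 (SE 0.14, adjusted p = 0.0281). Without KO library 1 or without KO library 2 the calls of Eif2s1 (-0.68 and -0.67) and Ppp1r15b (0.69 and 0.51) were lost, leaving 2 and 1 higher and 0 lower. The number lower was 2 without WT library 1 and 3 without WT library 2.

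The ATF6 and IRE1 arms of the unfolded protein response gave 5 higher (23.8%, against 7.42% of all tested genes) and 1 lower (4.76%, against 4.96%) of 21, with a median of 0.24. Herpud1, of degradation at the endoplasmic reticulum, rose by 2.00 (SE 0.27, edgeR adjusted p = 0.00238) and is also a known ATF4 target. Xbp1, whose message IRE1 splices, rose by 1.07 (SE 0.20, adjusted p = 0.012). The chaperone gene Calr (0.63, SE 0.14) and Sel1l (0.67, SE 0.17), a partner in degradation, were higher and lost their calls without KO library 1 (0.55 and 0.68) or KO library 2 (0.71 and 0.66), where the number higher was 2 each time. Sdf2l1 was the 1 lower gene (-1.09, SE 0.28), and the number lower was 0 without KO library 1 or WT library 2.

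Among 15 tested bZIP genes that can pair with the factors above, 4 were higher (26.7%, against 7.42% of all tested genes) and 0 lower (against 4.96%), with a median of 0.31. Cebpd rose by 1.99 (SE 0.44, edgeR adjusted p = 0.0196), with 2.95 without WT library 1 and 1.44 without WT library 2. Creb1 rose by 0.94 (SE 0.19), Nfe2l2, the oxidative stress factor NRF2, by 0.84 (SE 0.15) and Cebpg, a partner of ATF4, by 0.83 (SE 0.19). Cebpg and Jdp2 also count among the targets above. The number higher was 2 without KO library 1. There the calls of Nfe2l2 (0.78), Creb1 (0.90) and Cebpg (0.75) were lost, and Cebpg also lost its call without KO library 2 (0.91). The number lower was 1 without WT library 2.

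The closest relatives of the 10 genes were mixed, with 2 of 9 tested genes higher (22.2%, against 7.42% of all tested genes) and 0 lower (against 4.96%). Inhbb, the beta B subunit of activin and of the same family as Inhbe, rose by 1.34 (SE 0.17, edgeR adjusted p = 0.00176), from 59.3 and 60.1 CPM in WT to 136 and 166 CPM in KO. Ppp1r15b, counted above as well, was the other. Trib1 (1.00, SE 0.42) was not called and passed without KO library 1 (1.50) or WT library 1 (1.66), with 0.24 without KO library 2, and Sesn3 (0.82, SE 0.30) passed without WT library 1 (1.07). In the edgeR fit with no filter, Trib1 (adjusted p = 2.01e-05) and Sesn3 (adjusted p = 0.0335) were called. The DESeq2 test called neither (adjusted p = 0.506 and 0.112). With KO library 2 left out 1 was higher, and with WT library 1 left out 4 were. Among further relatives of Sesn2, Trib3 and Vldlr, Sesn1 (-0.33), Trib2 (0.34) and Lrp8 (-0.64) did not pass the test, and Inhba held 0 counts in every library.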

How the data were processed

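A single table of raw counts for 4 libraries of poly(A) RNA, with Ensembl identifiers as features, was deposited by the authors. Per the labels' protocols, libraries were made with the QuantSeq 3' FWD kit, which reads transcripts from near their 3' ends. The submitters' processing notes name Trim Galore and the build GRCm38. Which aligner, counter, strand setting and annotation were used is not given in the sources used here, so reads of overlapping genes cannot be assigned with certainty.

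GENCODE vM21 named 55240 of 55421 identifiers, and the others held 0.0025% of counts. CPM was computed from library totals. The whole table was fitted in edgeR 4.0.16 under R 4.3.3, with TMM, filterByExpr and a two-sided quasi-likelihood test of KO against WT. Benjamini-Hochberg adjustment ran over the 14427 genes kept, among them all 10, with a threshold of 0.05. The SE of a log2 fold change is its size over the root of F, and 95% intervals use the t distribution of the fit. Floors cover counting error only, since reads carry no molecular identifiers. No library repeated another: chi-square over degrees of freedom was 8.29 within KO and 13.2 within WT. The fit was tested on simulated data. Alternatives were DESeq2 1.42.0 (size factors and test), library totals, 2 other filters, a replicate block and each library left out. Those for genes outside the 10 were chosen after seeing the data.

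The members and lists were chosen with earlier results of these data known. Of each list up to 4 genes with the smallest p were named, beside genes that flank or overlap the 10. Gdf15, Stc2, Vegfa, Fgf21, Chac1, Asns, Ddit4, Jdp2, Sdf2l1, the eIF2 kinases, further relatives of the 10 and single markers were named after their values were seen.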

Additional observations from a re-analysis of the deposited data

How the results depend on the processing

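Under DESeq2 (size factors or test), library totals, either other filter (none, or a mean of 10 CPM) or the replicate block, the count of the 10 genes called higher stayed at 6 and the count lower at 0. With 1 library left out the number higher was between 4 and 7, with 0 lower, and Atf3 and Cebpb were the genes that lost calls. The 38 ATF4 or CHOP targets gave between 18 and 31 higher with 1 library left out, and between 0 and 1 lower. Over all genes, 1786 were called (1071 higher, 715 lower). Without a filter 2783 were called (1193 lower), a mean of 10 CPM or more gave 1027 (636 higher, 391 lower), and with 1 library left out 871 to 2488 were called, with 556 to 1477 higher and 285 to 1011 lower. Library 1 minus library 2 in KO and in WT correlated with r = -0.0703 across tested genes. This gives no sign of pairing by library number, though a weak shared effect could give such a value too. The replicate block gave 1005 calls (636 higher, 369 lower) and 22 of the 38 targets. Of the genes named, Sel1l (adjusted p = 0.0637), Cebpg (0.0543), Fgf21 (0.0847), Arhgap9 (0.0505) and Mbd6 (0.0639) lost their calls with it. With 1 library left out signs turned for Atf4 (-0.18 to 0.59), Ddit3 (-0.38 to 1.02), Sesn2 (-0.16 to 0.44), Nup62 (-0.13 to 0.16) and Tulp2 (-0.14 to 0.64), and the cause was not tested. Nup62 also gave -0.01 at a mean of 10 CPM or more. A fit without 1 library assumes that the lone library varies like the other pair. Depth limits Inhbe in WT, with 7 and 6 counts.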
